A study of Saccharomyces cerevisiae with 34 samples.

Results

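The comparison described here set cells that express TIR against cells that lack it, both under endoplasmic reticulum (ER) stress and neither given auxin. It rests on 8 of the 34 libraries of the series, chosen by their labels: the +TIR and the no TIR libraries labelled with DMSO and DTT, with 2 mRNA and 2 ribosome footprint libraries a strain, at 1 h and at 2 h. The series measured mRNA by sequencing and ribosome occupancy by ribosome profiling, in which the mRNA fragments covered by ribosomes (footprints) are sequenced, in Saccharomyces cerevisiae of the SK1 background, and 22 of its libraries belong to the auxin experiment. All cells grew in rich glucose medium. TIR vehicle cells (genotype +TIR) and no-TIR vehicle cells (genotype no TIR) received DMSO and water, and 15 min later 5 mM dithiothreitol (DTT). TIR auxin cells and no-TIR auxin cells, set beside them below, received 500 µM auxin with 4 µM IP6 and then the same DTT.

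The series text says that the cells of the auxin experiment were wild-type or depleted for Hac1. The labels describe no degradation tag on Hac1, no promoter or insertion site of TIR, and not whether a strain is 1 clone. Per the treatment protocol, the vehicle and the auxin subcultures of a strain were split from a shared culture. The vehicle and auxin differences thus use separate libraries but may share parent cultures, and a shared fit gave the spread for both. Whether the pair of hours in a group was sampled from independent cultures is not stated, and the p-values therefore measure only the spread between these samples, which may be technical.

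The unfolded protein response starts when misfolded protein builds up in the ER, as it does when DTT reduces disulfide bonds. The ER kinase and nuclease Ire1 then splices the HAC1 mRNA, and the Hac1 protein made from it activates genes for chaperones, disulfide oxidases, glycosylation, lipid synthesis and vesicle traffic. TIR is a plant F-box protein that joins the yeast SCF ubiquitin ligase and, once auxin is bound, hands tagged proteins to it for degradation. Vehicle-treated cells with and without TIR show what differs between the strains where the trigger was not given.

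Values are RPKM (reads scaled to gene length and library total). Differences are TIR minus no TIR in log2(RPKM + 1), a scale that understates changes of low genes. A gene was called where limma's moderated test gave a Benjamini-Hochberg adjusted p under 0.05. The reads in genes were estimated at 14.0 to 16.5 M in TIR vehicle mRNA libraries and 13.7 to 15.1 M in no-TIR vehicle mRNA libraries. The footprint libraries differed more, with 24.1 to 24.5 M in TIR vehicle cells and 12.1 to 12.9 M in no-TIR vehicle cells, and 712 to 754 genes stood at 0 there against 812 to 844. The part of this depth gap in the footprint results was not tested. Genes of a cells (MFA1, MFA2, STE2, STE6, BAR1 and ASG7) summed to 96.0 to 96.9 RPKM of mRNA in TIR vehicle cells and 86.9 to 92.6 RPKM in no-TIR vehicle cells. Genes of alpha cells (MF(ALPHA)1, MF(ALPHA)2, STE3 and SAG1) summed to 29.2 to 32.9 RPKM in TIR vehicle cells and 30.6 to 33.6 RPKM in no-TIR vehicle cells. In footprints the a-cell genes summed to 10.1 to 15.7 RPKM in TIR vehicle cells and 16.5 to 24.3 RPKM in no-TIR vehicle cells, and the alpha-cell genes to 2.5 to 2.8 RPKM in TIR vehicle cells and 1.6 to 2.3 RPKM in no-TIR vehicle cells. The marker genes LEU2 and HIS3 were listed at 0 in all 22 libraries of the auxin experiment.

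With vehicle, few genes differed between the strains by over 1 log2 unit (20 in mRNA and 21 in footprints). No gene was called in mRNA (0 of 5757 tested, 0%), in footprints (0 of 5338, 0%) or in translational efficiency, log2 footprints less log2 mRNA per gene (0 of 5329, 0%). At an unadjusted limma p under 0.05 there were 65 genes in mRNA (1.13%), 245 in footprints (4.59%) and 86 in translational efficiency (1.61%). The lowest adjusted p was 0.119, 0.994 and 0.694. The unadjusted shares lay below the share that this cut would pass if no gene differed. Absent calls are therefore not a measure of closeness, and the reason for the low shares was not tested. The 95% confidence interval of the strain difference lay within 1 log2 unit of 0 for 96.2% of genes in mRNA, 96.8% in footprints and 98.4% in translational efficiency. Within 0.5 log2 units it lay for 75.7%, 78.9% and 72.3%, so smaller differences were not bounded for the rest. In a fit to the 4 vehicle libraries of a molecule alone, with 1 residual degree of freedom, 22 genes were called in mRNA, 4 in footprints and 35 in translational efficiency.

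The HAC1 transcript, whose protein the study targets, was abundant in every vehicle library. HAC1 mRNA was 27298.4 RPKM at 1 h and 22619.9 RPKM at 2 h in TIR vehicle cells, against 29191.4 and 25968.4 RPKM in no-TIR vehicle cells, and the groups overlapped. Its difference was −0.15 (95% interval −0.42 to 0.13, limma adjusted p = 1.00). HAC1 footprints were 4790.4 and 4380.7 RPKM in TIR vehicle cells and 5745.0 and 5846.0 RPKM in no-TIR vehicle cells, so both TIR libraries were below both no-TIR libraries, at −0.34 (−0.61 to −0.07, adjusted p = 0.994). With auxin the footprints of HAC1 were 4544.4 and 4573.8 RPKM in TIR cells against 5804.2 and 5310.3 RPKM in no-TIR cells, a difference of −0.28 (adjusted p = 0.191). These RNA values check neither the tag nor the amount of Hac1 protein. IRE1, the sensor kinase, had 55.6 and 62.0 RPKM of mRNA in TIR vehicle cells and 59.5 and 51.4 RPKM in no-TIR vehicle cells, without a common direction at both hours.

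The chaperone and oxidase genes that Hac1 is known to activate were high in both strains. KAR2, the ER Hsp70, had 14148.5 and 12886.7 RPKM of mRNA in TIR vehicle cells and 14983.0 and 13847.2 RPKM in no-TIR vehicle cells, a difference of −0.09 (95% interval −0.36 to 0.17). Its footprints were 13660.4 and 11738.7 RPKM against 13370.4 and 14119.6 RPKM, a difference of −0.12 (−0.38 to 0.15), and the groups overlapped in both molecules. With auxin KAR2 mRNA was 4050.6 and 3594.7 RPKM in TIR cells against 14791.3 and 14385.4 RPKM in no-TIR cells, a fall of −1.93 (limma adjusted p = 4.3e-06). PDI1, the protein disulfide isomerase, had 5864.7 and 5470.1 RPKM of mRNA in TIR vehicle cells, both below the 6366.7 and 5895.7 RPKM of no-TIR vehicle cells, at −0.11 (−0.42 to 0.19). ERO1, the oxidase that keeps PDI1 oxidized, had 2029.0 and 2128.2 RPKM against 2359.9 and 2266.5 RPKM, again without overlap, at −0.15 (−0.45 to 0.14). SIL1, the nucleotide exchange factor of KAR2, had 1557.0 and 1115.1 RPKM against 1815.7 and 1439.1 RPKM, lower at each hour but overlapping, at −0.29 (−0.61 to 0.02). None of these was called with vehicle. With auxin PDI1, ERO1 and SIL1 mRNA was lower in TIR than in no-TIR cells, at −0.98, −1.98 and −2.33 (limma adjusted p = 0.00147, 7.2e-06 and 4.3e-06).

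**Figure D1:**
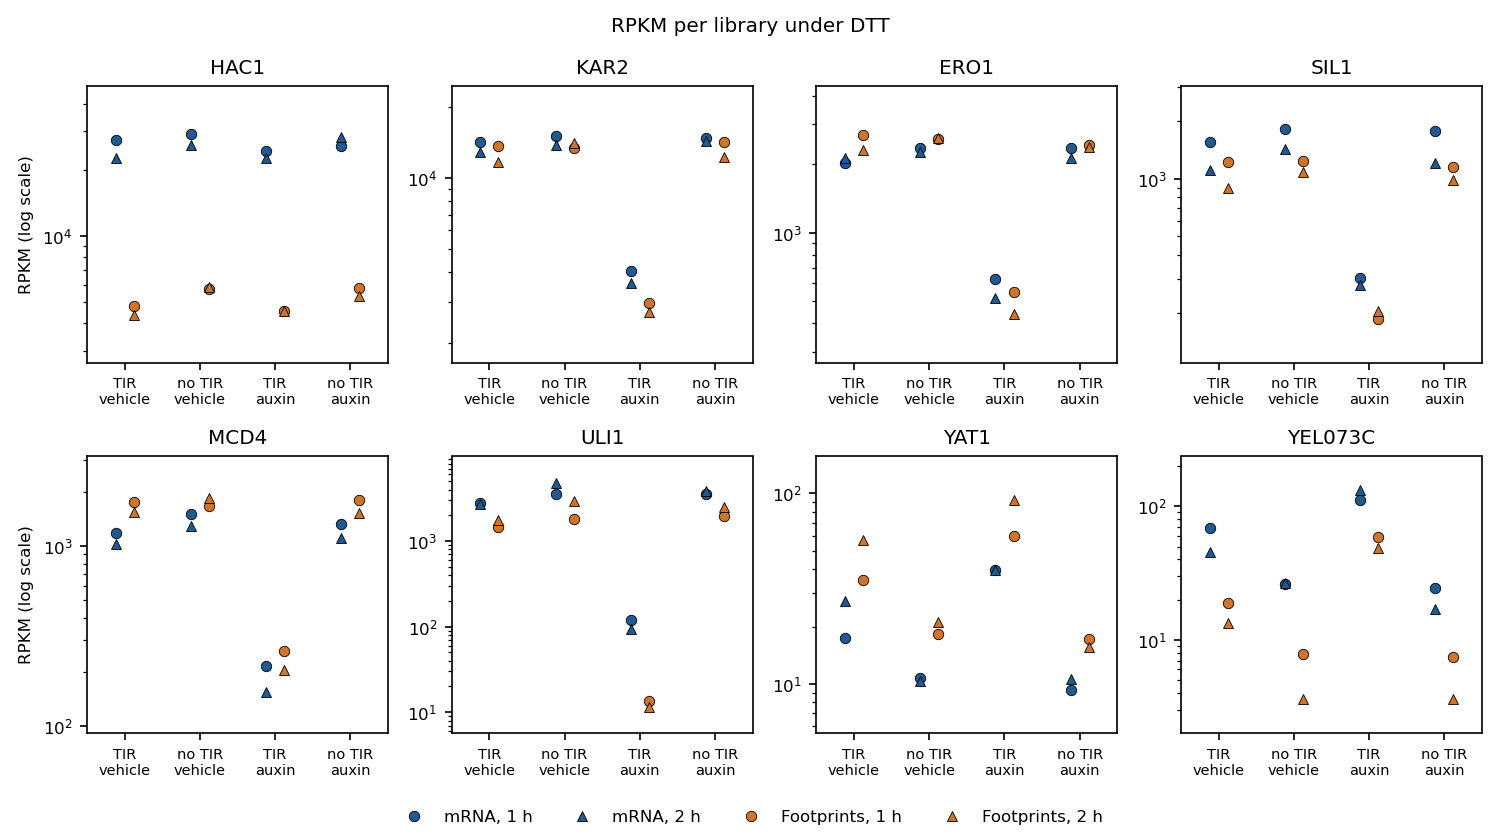
RPKM in each library under DTT on log axes, for 8 genes and 4 groups, with mRNA in blue, footprints in orange, circles for 1 h and triangles for 2 h. For KAR2, ERO1, SIL1, MCD4 and ULI1 the TIR vehicle libraries stand near both no-TIR groups and far above the TIR auxin libraries, while for YAT1 and YEL073C they stand between the no-TIR and the TIR auxin libraries.

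Across the list of 16 ER protein folding genes, the vehicle difference was small and mostly below 0. In mRNA 14 of 16 were below 0, and the median was −0.10 against −0.01 over all genes. There 4 had both TIR libraries below both no-TIR libraries (6.93% of all genes did), namely PDI1, ERO1 and the DnaJ-type KAR2 cofactors SCJ1 and JEM1. After median-ratio scaling the mRNA count was 2 of 16 (background then 5.21%). In footprints 13 of 16 were below 0, the median was −0.10 against 0.04 over all genes, and 6 were lower without overlap (background 6.44%), or 8 after median-ratio scaling (background then 9.69%). LHS1, an ER chaperone of the Hsp70 family, was the only member higher without overlap in footprints, with 503.2 and 488.3 RPKM in TIR vehicle cells and 425.7 and 462.2 RPKM in no-TIR vehicle cells. Every 95% interval of the 16 lay between −0.61 and 0.42 in mRNA and between −0.48 and 0.41 in footprints. With auxin the same list had medians of −0.99 in mRNA and −1.16 in footprints. In each molecule 12 of 16 were called lower in TIR cells, against 3.75% and 5.79% of all genes.

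The other ER lists also stayed near the median of all genes with vehicle, and none of their members was called. ER-associated degradation, N- and O-glycosylation, ER translocation and signal recognition, and GPI anchor synthesis had mRNA medians of −0.01, −0.04, −0.01 and 0.01, and footprint medians of 0.01, −0.03, 0.06 and 0.00. ER-Golgi transport had medians of −0.05 and −0.03, with 23 of 29 genes below 0 in mRNA. Ergosterol synthesis had −0.03 and 0.00, and phospholipid and fatty acid synthesis had −0.05 and 0.03. After median-ratio scaling the sign turned for degradation and translocation in mRNA, and for degradation, ergosterol and phospholipid synthesis in footprints, and the median over all genes tested was 0.00 in both molecules. With auxin the medians for glycosylation were −0.38 and −0.40, with 11 and 17 of 36 genes called lower in TIR cells. Those for ER-Golgi transport were −0.29 and −0.43, with 8 and 16 of 29 called lower (background 3.75% in mRNA and 5.79% in footprints).

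MCD4, an ethanolamine phosphate transferase of GPI anchor synthesis, had the lowest mRNA difference among the 22 genes of its list. Lower without overlap in mRNA were 2 of the 22 (background 6.93%), MCD4 among them. Its mRNA was 1178.8 and 1035.2 RPKM in TIR vehicle cells and 1518.8 and 1296.3 RPKM in no-TIR vehicle cells, so the groups did not overlap, at −0.34 (95% interval −0.63 to −0.06, limma adjusted p = 1.00). MCD4 footprints were 1755.8 and 1553.7 RPKM against 1675.8 and 1856.7 RPKM, which overlap. With auxin MCD4 mRNA was 215.5 and 155.7 RPKM in TIR cells and 1330.9 and 1105.4 RPKM in no-TIR cells.

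ULI1, an ER stress gene whose function is unknown, had the lowest vehicle difference among 12 further genes known to be induced by ER stress. ULI1 mRNA was 2822.2 and 2740.8 RPKM in TIR vehicle cells and 3505.5 and 4799.9 RPKM in no-TIR vehicle cells, both libraries lower, at −0.56 (95% interval −0.95 to −0.17, limma adjusted p = 1.00). Its footprints were 1452.9 and 1743.3 RPKM against 1829.2 and 2933.0 RPKM, also without overlap, at −0.54 (−0.96 to −0.12). With auxin ULI1 mRNA was 121.1 and 92.9 RPKM in TIR cells against 3575.7 and 3801.7 RPKM in no-TIR cells, a fall of −5.11 (adjusted p = 3.7e-08). ULI1 was 1 of the 22 genes called in the fit to the vehicle libraries alone (limma adjusted p = 0.026).

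The strain difference itself was then compared between vehicle and auxin, as the vehicle difference minus the auxin difference. This contrast was called for 53 genes in mRNA (0.921%), 43 above 0 (0.747%) and 10 below 0 (0.174%), and for 96 genes in footprints (1.8%), 79 above 0 (1.48%) and 17 below 0 (0.318%). Of these, 52 in mRNA and all 96 in footprints were also called between the strains with auxin. Leaving out single libraries gave 22 to 64 genes in mRNA and 17 to 43 in footprints. The other mRNA gene was YOR008W-B, a short reading frame, with 38.7 and 37.3 RPKM in TIR vehicle cells and 5.6 and 10.1 RPKM in no-TIR vehicle cells. It had 27.3 and 14.8 RPKM in TIR auxin cells and 27.4 and 28.2 RPKM in no-TIR auxin cells, so the no-TIR vehicle libraries were the low ones. Its vehicle difference, 2.19, was the largest above 0 in mRNA and had the lowest limma adjusted p, 0.119, and 0.0417 without the no-TIR vehicle 2 h library. Without the hour term the contrast was called for 18 genes in mRNA and 27 in footprints.

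Folding genes were among those whose strain difference differed. In the list of 16, the contrast was called above 0 for 6 in mRNA and 10 in footprints (background 0.747% and 1.48%). KAR2 differed by 1.84 in mRNA and 2.10 in footprints (limma adjusted p = 0.000411 and 0.000745), and ERO1 by 1.82 and 2.23 (adjusted p = 0.000726 and 0.000648). DOG1, a 2-deoxyglucose-6-phosphate phosphatase, had 3130.8 and 2068.2 RPKM of mRNA in TIR vehicle cells and 3194.4 and 2801.0 RPKM in no-TIR vehicle cells, and its contrast was 2.51 (adjusted p = 0.000411). INO1, the inositol phosphate synthase, had 90.3 and 62.0 RPKM of footprints in TIR vehicle cells, 90.9 and 87.8 RPKM in no-TIR vehicle cells, 5.2 and 5.6 RPKM in TIR auxin cells and 88.0 and 65.7 RPKM in no-TIR auxin cells. Its contrast was 3.33 (adjusted p = 0.000682). PHO89, a sodium-phosphate cotransporter, differed in the other direction, at −2.21 in mRNA (adjusted p = 0.00921). PHO89 mRNA was 123.7 and 187.5 RPKM in TIR vehicle cells and 111.1 and 214.7 RPKM in no-TIR vehicle cells, against 339.9 and 511.7 RPKM in TIR auxin cells and 66.0 and 124.1 RPKM in no-TIR auxin cells.

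**Figure D2:**
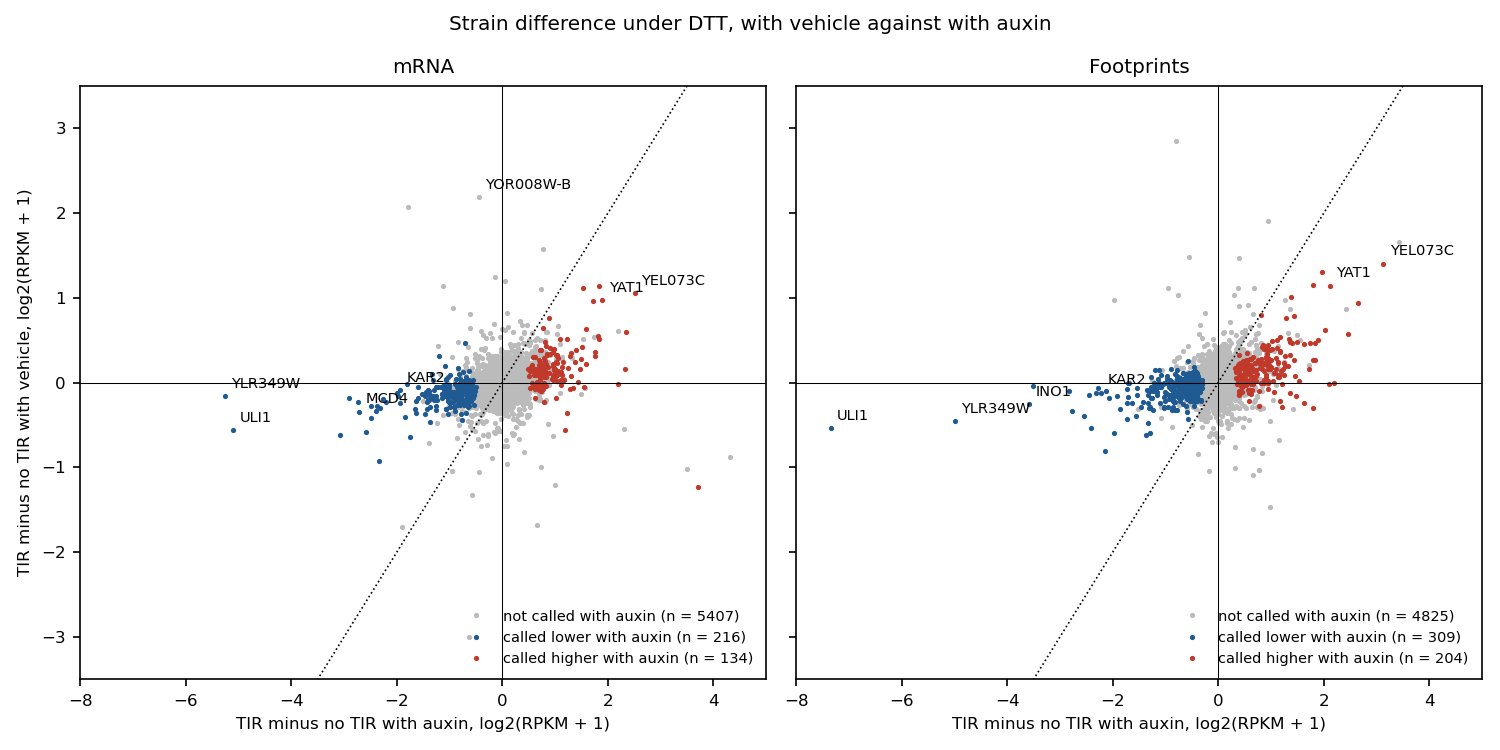
Strain difference per gene with vehicle (vertical) against the strain difference with auxin (horizontal), both TIR minus no TIR on log2(RPKM + 1), for mRNA and footprints, with the dotted line marking equal values. Genes called with auxin in mRNA, 216 lower and 134 higher, lie mostly near 0 on the vertical axis, and ULI1 lies at −5.11 with auxin and −0.56 with vehicle.

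Genes called with auxin were chosen by a difference between libraries that the vehicle comparison does not use. The spread and hour term behind the calls came from a fit that includes the vehicle libraries. Vehicle values of these genes are thus not independent of the choice, and the cultures may share a parent. What this adds to the shares below was not tested. The genes called numbered 350 in mRNA (6.08%) and 513 in footprints (9.61%), or 153 and 201 without the hour term. Without the no-TIR auxin 1 h library they were as few as 125 in mRNA and 126 in footprints. The 216 genes lower in TIR with auxin in mRNA (3.75% of those tested) had a vehicle median of −0.13, against −0.87 with auxin and −0.01 over all genes with vehicle. Of these, 51 (23.6%) had both TIR vehicle libraries below both no-TIR vehicle libraries, against 6.93% of all genes, and 2 had both above. The 134 genes higher with auxin (2.33%) had a vehicle median of 0.15, against 0.87 with auxin. Among them 26 (19.4%) were higher with vehicle without overlap, against 5.85% of all genes, and 5 were lower without overlap. The median gene showed 12.9% of its auxin difference with vehicle in the lower set and 16.5% in the higher set. None was called with vehicle. With the sets chosen again, an alternative added after seeing the data, the lower-set median was −0.2112 without the TIR vehicle 1 h library and −0.0496 without the TIR vehicle 2 h library. The higher-set median was 0.0918 without the no-TIR vehicle 1 h library, 0.0963 without the TIR vehicle 2 h library and 0.0935 without the no-TIR auxin 2 h library.

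Footprints gave a smaller median for the lower set, by an amount that depends on the scaling. After median-ratio scaling, with the sets chosen again, it was −0.0968 in footprints and −0.1194 in mRNA. The higher-set footprint median was then 0.1141. The values and shares that follow are unscaled. The 309 genes lower in TIR with auxin (5.79%) had a vehicle median of −0.07, against −0.63 with auxin, and the 204 higher (3.82%) had 0.16, against 0.75 with auxin, where all genes had a vehicle median of 0.04. Without overlap and in the same direction as with auxin were 62 of the lower genes (20.1%, background 6.44%) and 48 of the higher genes (23.5%, background 14.1%), and in the opposite direction 14 and 5. The median gene showed 8.28% and 20.7% of its auxin difference. With the sets chosen again, the lower-set median was −0.1007 and −0.025 without the TIR vehicle 1 h or 2 h library, and −0.1012 and −0.0312 without the no-TIR vehicle 1 h or 2 h library. The higher-set median was 0.0514 without the no-TIR vehicle 1 h library, 0.2395 without the no-TIR vehicle 2 h library and 0.2397 without the no-TIR auxin 1 h library.

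These vehicle medians were not the same at the 2 times. The mRNA genes lower with auxin had a vehicle median of −0.03 at 1 h and −0.23 at 2 h, and the footprint genes had −0.01 and −0.12. For the genes higher with auxin the medians were 0.15 and 0.14 in mRNA, and 0.22 and 0.06 in footprints. With 1 library a strain at each hour, no hour has a replicate check. Across all genes tested, the strain differences at 1 h and 2 h correlated at Pearson r = −0.131 and Spearman rho = −0.309 over 5757 genes in mRNA, and at 0.107 and 0.145 over 5338 genes in footprints. These are correlations across genes of the same libraries, which are not independent replicates.

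**Figure D3:**
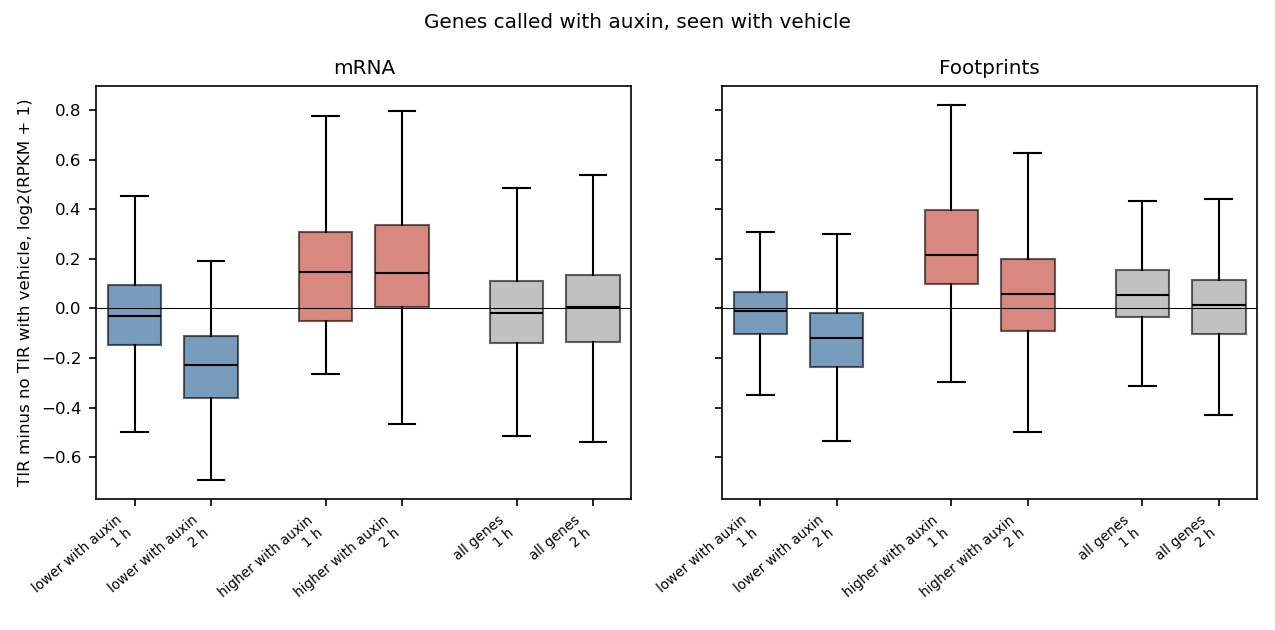
Vehicle strain difference (TIR minus no TIR, log2(RPKM + 1)) at each hour for genes called lower with auxin (blue), called higher with auxin (red) and all genes tested (gray). Boxes span the quartiles with the median as a line, and whiskers reach 1.5 times the box length, with genes beyond them not drawn. The mRNA genes called lower have a median of −0.03 at 1 h and −0.23 at 2 h.

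Genes that responded to deletion of HAC1 in the series' other experiment, which has 1 library for each strain and treatment and so no replicate check, were read in the same way. Under DTT, 411 genes were at least 1 log2 unit lower in mRNA in the hac1 deletion than in wild type, and their vehicle median was −0.07, against −0.37 with auxin. Of these 69 (16.8%) were lower without overlap with vehicle and 17 (4.14%) were higher, against 6.81% and 5.7% of all genes in both tables. The 163 genes higher in the deletion had a vehicle median of 0.06, with 13 (7.98%) higher and 9 (5.52%) lower without overlap, shares near those of all genes. In footprints the 429 lower genes had a vehicle median of −0.04 and the 170 higher genes 0.10, against 0.04 over all genes. Without overlap, 52 of the lower genes (12.1%) were lower and 26 (6.06%) higher, and 31 of the higher genes (18.2%) were higher and 9 (5.29%) lower, where 6.46% of all footprint genes were lower and 14.1% higher.

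Beyond the auxin-responsive genes, cytosolic ribosomal protein genes were higher in TIR vehicle cells by small amounts, and none was called. Of 137 tested in mRNA 132 were above 0, the median was 0.17, and 67 had both TIR libraries above both no-TIR libraries (background 5.85%). The median was similar at 1 h and 2 h, at 0.16 and 0.16, and after median-ratio scaling it was 0.18 with 65 genes not overlapping (background then 6.83%). RPS29A mRNA was 4677.8 and 4374.0 RPKM in TIR vehicle cells and 3985.8 and 3355.5 RPKM in no-TIR vehicle cells, at 0.31 (95% interval 0.04 to 0.58), the highest of the list. RPS9B had 12407.4 and 11652.4 RPKM against 10374.5 and 9538.3 RPKM, and RPL3 had 9848.6 and 10088.2 RPKM against 9940.5 and 10021.6 RPKM, which overlap. RPL41A was the lowest, at −1.02, on 25.8 and 10.9 RPKM against 26.2 and 47.1 RPKM, and reads of this very short gene can be shared with its near-identical copy RPL41B. Other ribosomal protein pairs are alike in sequence as well, and the authors' counting of shared reads was not given in the sources used here.

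Footprints of ribosomal protein genes were higher mostly at 2 h. Of 135 tested 127 were above 0, the median was 0.18, at 0.06 at 1 h and 0.33 at 2 h, and 45 were higher without overlap (background 14.1%), or 21 after scaling (background then 8.99%). RPL1A had the largest difference, with 2019.6 and 2105.2 RPKM in TIR vehicle cells and 1821.4 and 1268.6 RPKM in no-TIR vehicle cells, at 0.44 (95% interval −0.10 to 0.98). With auxin the ribosomal protein median was −0.03 in mRNA and 0.14 in footprints, 1 gene was called between the strains, in footprints, and the vehicle and auxin differences were not called apart for any of them.

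Glycolysis genes were lower in TIR vehicle cells by small amounts, again with none called. In footprints all 16 were below 0, the median was −0.16, and 8 were lower without overlap (background 6.44%). TDH2, a glyceraldehyde-3-phosphate dehydrogenase, had 15061.0 and 14827.4 RPKM of footprints in TIR vehicle cells and 18605.1 and 17547.7 RPKM in no-TIR vehicle cells, at −0.27 (95% interval −0.50 to −0.05). GPM1, phosphoglycerate mutase, had 33880.9 and 29109.7 RPKM against 38798.9 and 35571.6 RPKM, at −0.24 (−0.44 to −0.05). ENO1, an enolase, had the lowest value, −0.29, with 9595.0 and 11944.6 RPKM against 11069.4 and 15388.5 RPKM, lower at each hour but overlapping. In mRNA 15 of 16 were below 0 with a median of −0.14, and 3 were lower without overlap (background 6.93%). PDC1, pyruvate decarboxylase, was the exception at 0.01. With auxin the glycolysis medians were 0.03 in mRNA and −0.05 in footprints. Between the strains with auxin, TDH2 and ENO2 footprints were lower in TIR cells, at −0.46 and −0.33 (limma adjusted p = 0.026 and 0.045). TDH1 mRNA was higher in TIR cells, at 0.64 (adjusted p = 0.048). The vehicle and auxin differences were not called apart for any glycolysis gene. The TDH genes, and likewise the ENO genes, are closely alike in sequence, and the authors' counting could split their reads.

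**Figure D4:**
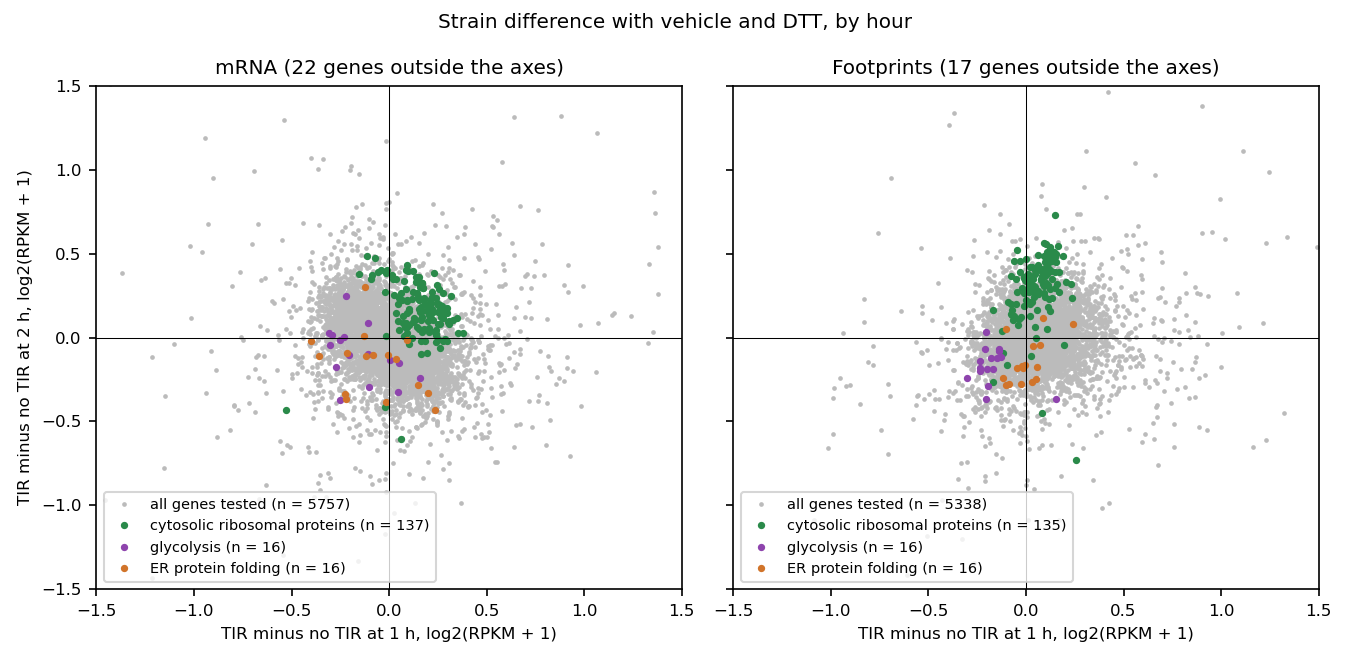
Strain difference with vehicle and DTT at 2 h (vertical) against 1 h (horizontal), TIR minus no TIR on log2(RPKM + 1), for mRNA and footprints, each point a gene. The 22 mRNA genes and 17 footprint genes beyond 1.5 log2 units are outside the axes. Cytosolic ribosomal protein genes (green) sit mostly above 0 at both hours in mRNA and mostly above 0 at 2 h in footprints, glycolysis genes (purple) sit mostly below 0, and folding genes (orange) sit mostly below 0 at 2 h.

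The iron regulon, genes for iron uptake under the factor Aft1, had vehicle medians of 0.16 in mRNA and 0.32 in footprints, with 15 of 18 and 14 of 16 genes above 0. Higher without overlap were 4 in each molecule (background 5.85% and 14.1%), and none was called. ENB1, a transporter of the siderophore enterobactin, had 312.8 and 284.3 RPKM of mRNA in TIR vehicle cells and 216.3 and 171.9 RPKM in no-TIR vehicle cells, at 0.63 (95% interval 0.27 to 0.98, limma adjusted p = 1.00). With auxin ENB1 had 798.8 and 589.9 RPKM in TIR cells against 225.6 and 232.7 RPKM in no-TIR cells, a rise of 1.58 (adjusted p = 0.00017). FET3, the iron oxidase of the plasma membrane, had 41.9 and 65.7 RPKM against 35.8 and 37.5 RPKM with vehicle, at 0.51 (0.09 to 0.93), and 1.22 with auxin (adjusted p = 0.0030). The list's medians with auxin were 0.44 and 0.61, with 7 of 18 and 8 of 16 genes called higher in TIR cells (background 2.33% and 3.82%). ENB1 and FET3 were chosen after their values were seen.

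General stress genes under Msn2 and Msn4 had medians of 0.19 in mRNA and 0.20 in footprints. At 1 h the medians were 0.25 and 0.39, and at 2 h 0.11 and 0.03. Above 0 were 23 of 29 in mRNA and 26 of 29 in footprints, or 24 and 21 after median-ratio scaling. Only 1 of 29 in each molecule was higher without overlap (background 5.85% and 14.1%). It was YGP1, a secreted cell wall glycoprotein, in both, and SPI1, a cell wall protein, was lower without overlap in mRNA. YGP1 mRNA was 334.9 and 235.5 RPKM in TIR vehicle cells and 199.5 and 182.7 RPKM in no-TIR vehicle cells, at 0.55 (95% interval 0.11 to 1.00). HSP12, a membrane-associated stress protein, had 532.9 and 929.5 RPKM of mRNA against 253.0 and 873.9 RPKM, so its strain difference was larger at 1 h, and the groups overlapped. Phosphate and zinc genes lay the other way with vehicle, with medians of −0.11 and −0.14 and 5 of 16 and 3 of 15 lower without overlap (background 6.93% and 6.44%), while their medians with auxin were 0.57 and 0.37.

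**Figure D5:**
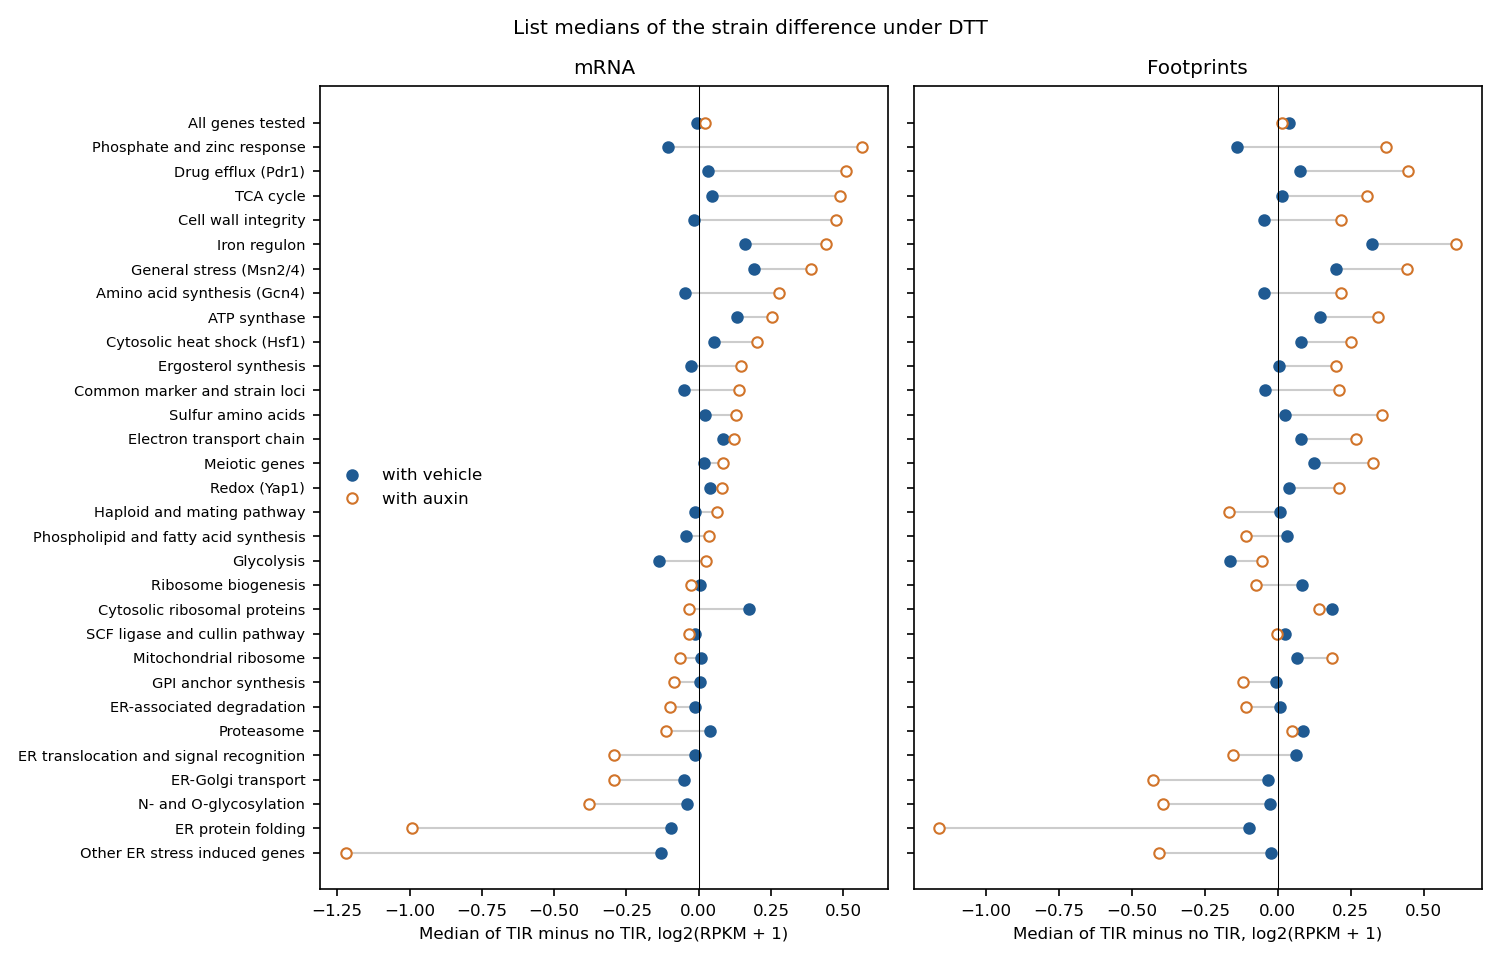
Median strain difference (TIR minus no TIR, log2(RPKM + 1)) of each list with at least 7 genes tested in mRNA, with vehicle (filled) and with auxin (open), ordered by the mRNA median with auxin below the row for all genes. ER protein folding stands at −0.10 with vehicle and −0.99 with auxin in mRNA, and the cytosolic ribosomal proteins at 0.17 and −0.03.

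TIR acts through the SCF ligase, and the genes of that ligase and of the cullin pathway stayed close to 0. Of 17 tested, every 95% interval lay between −0.52 and 0.50 in mRNA and between −0.47 and 0.55 in footprints, with medians of −0.01 and 0.03, the footprint median turning to −0.01 after scaling. SKP1, the adaptor that F-box proteins bind, had 2845.8 and 2015.0 RPKM of mRNA in TIR vehicle cells and 2454.5 and 2494.6 RPKM in no-TIR vehicle cells. CDC53, the cullin, had 381.2 and 482.3 RPKM against 416.8 and 428.6 RPKM. Both pairs of groups overlapped. Proteasome genes had medians of 0.04 and 0.09, and 8 of 32 were higher without overlap in footprints (background 14.1%), or 3 after scaling (background then 8.99%).

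The genes with the largest vehicle differences were mostly of low abundance. YEL073C, a reading frame of unknown function, had 68.5 and 45.4 RPKM of mRNA in TIR vehicle cells and 26.0 and 26.7 RPKM in no-TIR vehicle cells, at 1.05 (95% interval 0.55 to 1.56, limma adjusted p = 0.963). Its footprints were 18.8 and 13.4 RPKM against 7.8 and 3.6 RPKM, and with auxin its mRNA was 111.1 and 131.5 RPKM in TIR cells against 24.3 and 16.9 RPKM in no-TIR cells. YAT1, an outer mitochondrial carnitine acetyltransferase, had 17.4 and 27.2 RPKM of mRNA against 10.8 and 10.4 RPKM with vehicle, at 0.98 (0.51 to 1.44, adjusted p = 0.963). YAT1 footprints were 35.1 and 56.7 RPKM against 18.3 and 21.1 RPKM, at 1.14 (0.69 to 1.59). FMP45, a membrane protein related to eisosome components, had 44.6 and 49.2 RPKM of mRNA in TIR vehicle cells and 16.5 and 33.6 RPKM in no-TIR vehicle cells, and 90.9 and 85.0 RPKM of footprints against 29.0 and 52.5 RPKM. YEL073C, YAT1 and FMP45 were all called higher in TIR with auxin in mRNA, by 2.52, 1.90 and 1.72. CSS3 had 29.4 and 50.8 RPKM of mRNA against 16.9 and 29.5 RPKM, higher at each hour but overlapping.

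Lower in TIR vehicle cells were AQY2, an aquaporin, and the neighbouring reading frame YLL053C. AQY2 mRNA was 46.6 and 28.4 RPKM in TIR vehicle cells and 58.5 and 93.5 RPKM in no-TIR vehicle cells, at −1.002 (95% interval −1.62 to −0.39), and its footprints were 6.7 and 12.1 RPKM against 15.3 and 27.0 RPKM. YLL053C mRNA was 49.5 and 55.4 RPKM against 79.1 and 108.9 RPKM, at −0.81 (−1.22 to −0.41, limma adjusted p = 0.963). Both were above their no-TIR levels at each hour in TIR auxin cells, where AQY2 mRNA had 106.8 and 181.5 RPKM against 70.6 and 99.4 RPKM, though not called (adjusted p = 0.152). HXT1, a low-affinity glucose transporter, had 159.5 and 158.8 RPKM of footprints in TIR vehicle cells and 191.8 and 404.4 RPKM in no-TIR vehicle cells, at −0.80 (−1.63 to 0.03), and PIR3, a cell wall protein, had 100.6 and 481.1 RPKM against 200.5 and 718.1 RPKM. YPR160W-A, YJL077W-B, YBR141W-A and YMR158C-A, short reading frames, were also among the largest, in mRNA or in footprints. YPR160W-A pointed to opposite sides, at −1.23 (−3.40 to 0.93) in mRNA and 1.30 (0.15 to 2.46) in footprints.

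CIN5, a basic leucine zipper factor, had 143.8 and 341.0 RPKM of footprints in TIR vehicle cells and 60.1 and 171.5 RPKM in no-TIR vehicle cells, at 1.12 (95% interval 0.01 to 2.22, limma adjusted p = 0.994). CIN5 mRNA was 105.5 and 228.2 RPKM against 66.0 and 132.1 RPKM, and with auxin it was 104.3 and 62.0 RPKM against 50.2 and 81.1 RPKM. SCEI, a mitochondrial homing endonuclease, had 11273.0 and 16557.0 RPKM of footprints in TIR vehicle cells and 5209.1 and 7666.0 RPKM in no-TIR vehicle cells, at 1.11 (0.55 to 1.67, adjusted p = 0.994). Its mRNA was 1661.4 and 5071.2 RPKM against 1961.7 and 3269.8 RPKM and overlapped, so its translational efficiency, as computed here, was higher by 0.92 (0.17 to 1.66).

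Between the molecules, 1098 genes (20.6%) did not overlap in footprints, 754 higher and 344 lower in TIR vehicle cells, against 736 (12.8%) in mRNA, 337 higher and 399 lower. After median-ratio scaling the footprint counts were 480 higher and 517 lower and the mRNA counts 393 and 300, so the share above 0 in each depends on the scaling. Of the genes tested in both and lower without overlap, 60 were shared, 17.4% of either set. Higher without overlap in both were 102, or 35.1% of the mRNA set and 13.5% of the footprint set. The strain differences of mRNA and footprints correlated at Pearson r = 0.422 and Spearman rho = 0.401 across 5329 genes, which are not independent replicates.

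Translational efficiency did not overlap for 1265 genes (23.7%), 942 higher (17.7%) and 323 lower (6.06%), or 557 and 637 after scaling, so its direction over many genes is not settled by these values. The folding genes had a translational efficiency median of 0.03, or −0.02 after scaling, and KAR2, PDI1, ERO1 and SIL1 stood at −0.02, −0.06, 0.10 and 0.14, with every 95% interval between −0.42 and 0.43. HAC1 translational efficiency was −2.51 and −2.37 in TIR vehicle cells and −2.35 and −2.15 in no-TIR vehicle cells on the log2 scale, a difference of −0.19 (−0.60 to 0.22). The HAC1 ligase gene TRL1 and the phosphatase gene PTC2 were also lower without overlap, at −0.13 and −0.19. MRX7, a mitochondrial protein, had footprints of 39.2 and 41.7 RPKM against 31.8 and 21.9 RPKM and mRNA of 120.3 and 140.1 RPKM against 132.4 and 173.0 RPKM, a difference of 0.82 (0.29 to 1.35). YNL046W lay lower, at −0.68 (−1.10 to −0.26), with footprints of 16.9 and 17.1 RPKM against 29.0 and 25.6 RPKM. PAU2, YLR140W, YLR402W and YMR158C-A were also lower, by −0.80, −0.79, −1.05 and −1.19, and YDR278C and YDR445C were higher, by 0.61 and 0.73.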

How the data were processed

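mRNA-seq and ribosome footprint libraries were analysed from the authors' deposited tables of 6679 genes. The deposited values of the deletion table are RPKM, per the file headers, and those of the auxin table name no unit and were taken as RPKM because genes, range and sums match. Per the submitters' processing notes the tools were Bowtie2, CASAVA and bcl2fastq 2.17. Build, annotation and counting rule, with use of strand, were not given in the sources used here. Symbols came from RefSeq (R64) for 5994 identifiers, and 685 did not match. No value column was left without a sample.

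Groups follow the library titles, and the replicate is the labelled hour. Genes averaging 5 RPKM or more across the 11 auxin-experiment libraries of a molecule were fitted with limma 3.58.1 (R 4.3.3), with a mean-variance trend, on log2(RPKM + 1), with a term for each of 6 groups and one for the hour (4 residual degrees of freedom), and p-values were Benjamini-Hochberg adjusted over all genes. Library deviations between 2 h and 1 h correlated among the 4 DTT groups at r = 0.253 to 0.614 in mRNA and 0.586 to 0.77 in footprints. The hour thus pairs the DTT samples. Between TIR auxin cells without DTT and the DTT groups, r was −0.094 to 0.186 in mRNA and 0.019 to 0.057 in footprints. The fit still used a shared hour term for all groups, and what this adds to the spread was not tested. Depth was estimated from the value of 1 read with coding length shortened by 60 nt, at which 81.0% to 85.0% of values were whole within 0.02, and no count model was fitted. The code was tested on simulated data.

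Comparison, members and the 34 lists were chosen with earlier results of these data known. Named genes are KAR2, PDI1, ERO1, SIL1, HAC1 and IRE1, the 5 largest vehicle differences in each direction with the same sign at both hours and a mean of at least 20 RPKM, and the 10 largest called contrasts against auxin. Others are list examples. The alternatives tried were pseudocounts of 0.5 and 5, no filter, a filter of 20 RPKM, median-ratio scaling, no hour term, no trend, the compared libraries alone, and each library left out.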

Additional observations from a re-analysis of the deposited data

Results flagged for a closer look

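The strain difference with vehicle differed from the strain difference with auxin, by the limma contrast between them at an adjusted p under 0.05, for 53 genes in mRNA and 96 in footprints. Values below are the vehicle difference minus the auxin difference in log2 units, with 2 libraries in each of the 4 groups, and positive values mean that TIR stood lower against no TIR with auxin than with vehicle. For YOR008W-B it was the vehicle difference that lay away from 0, at 2.19, against −0.45 with auxin.

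In mRNA the contrast was 5.1 for YLR349W, an uncharacterized reading frame, 4.55 for ULI1, 2.74 for YET2, an ER membrane protein homolog, 2.51 for DOG1 and 2.38 for MCD4. It was 2.22 for IRC4, 2.11 for KNH1, which acts in cell wall glucan synthesis, 2.05 for PEX18, a peroxisomal import factor, 2.63 for YOR008W-B and −2.21 for PHO89. In footprints it was 6.8 for ULI1, 4.54 for YLR349W, 3.48 for YET2, 3.33 for INO1, 2.74 for MCD4, 2.43 for DOG1, 2.3 for SIL1, 2.23 for ERO1, 2.19 for YDL124W, an NADPH-dependent reductase, and 2.1 for KAR2. All 10 footprint genes were called between the strains with auxin and none with vehicle. IRC4 footprints did not follow its mRNA, with 125.1 and 139.0 RPKM in TIR auxin cells against 67.3 and 121.8 RPKM in no-TIR auxin cells.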

How the results depend on the processing

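The count of genes called between the strains with vehicle was 0 in mRNA, footprints and translational efficiency with pseudocounts of 0.5 and 5, a filter of 20 RPKM, median-ratio scaling and no replicate block (the model without the hour). With no filter on low values it was 2, 2 and 3, without the trend 1 in mRNA (YOR072W-B), and in the compared libraries alone 22, 4 and 35. Leaving out a library gave 0 to 1 in mRNA (YOR008W-B, without the no-TIR vehicle 2 h library) and 0 to 7 in translational efficiency (without the no-TIR vehicle 1 h library). With auxin, the strain difference had 108 and 287 calls in mRNA and footprints with no filter, and 153 and 201 without the block. Without single libraries it had 125 to 332 in mRNA, the low counts being 125 (no-TIR auxin 1 h) and 136 (TIR auxin 1 h), and 126 to 227 in footprints for any of the 4. The contrast between vehicle and auxin had 11 and 41 calls with no filter, 18 and 27 without the block, 34 and 56 without the trend, and 247 in footprints from the compared libraries alone. Leaving out any of the 8 footprint libraries gave 17 to 43, and leaving out an mRNA library gave 22 (without TIR vehicle 1 h) to 64 (without no-TIR auxin 2 h), and it lowered the count by over 1.5 times for each library except no-TIR auxin 2 h and TIR vehicle 2 h. The genes tested, the prior spread and the residual degrees of freedom change with these settings, and the cause of each shift was not tested.

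The vehicle median of mRNA genes called higher with auxin, chosen again under each setting, an alternative added after seeing the data, was 0.1326 at 20 RPKM, 0.1575 with scaling, 0.1333 with no filter, 0.1626 without the trend, 0.1593 in the compared libraries and 0.1378 with a pseudocount of 5, and 0.0918 to 0.2153 without single libraries. The medians of the other 3 sets kept their sign but moved, to −0.2112 to −0.0496 for the mRNA genes lower with auxin, −0.1012 to −0.025 for the footprint genes lower and 0.0514 to 0.2397 for the footprint genes higher, without single libraries. Leaving out single libraries turned the sign of some values that were not called. In footprints these were ERO1 (−0.1325 to 0.0138), IRE1 (−0.21 to 0.20) and SIL1 (−0.3459 to 0.0432). In mRNA they were IRE1 (−0.0684 to 0.2381), RPL41A (−2.23 to 0.20) and YJL077W-B (−1.61 to 0.24). In translational efficiency they were ERO1 (−0.0875 to 0.2775), IRE1 (−0.36 to 0.19), KAR2 (−0.136 to 0.0869), PDI1 (−0.1727 to 0.0452), YDR278C (−0.0752 to 1.3034) and YDR445C (−0.29 to 1.75).

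With 2 libraries a side at different hours, the 95% interval reached beyond 0.5 log2 units for many genes. Larger differences also went uncalled, such as 1.14 for YAT1 footprints and 1.11 for SCEI footprints (limma adjusted p = 0.994 for each). The lack of calls therefore does not bound the differences at 0.5 log2 units. Depth differed between the strains in footprints, and short or low genes have wide intervals.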

Other observations

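VHT1, BIO3 and BIO4, 3 genes of biotin uptake and synthesis picked after their values were seen, were higher in TIR vehicle cells without overlap in both molecules. This held for 102 of the 5329 genes tested in both, and none of the 3 was called by limma. BIO5, which takes up a biotin precursor, overlapped in mRNA, with 5.6 and 3.7 RPKM in TIR vehicle cells and 5.8 and 2.6 RPKM in no-TIR vehicle cells. BIO2, the biotin synthase, also overlapped, with 419.4 and 200.9 RPKM of mRNA in TIR vehicle cells and 405.2 and 245.5 RPKM in no-TIR vehicle cells. VHT1, the biotin transporter, had 292.6 and 331.3 RPKM of mRNA in TIR vehicle cells and 230.0 and 218.6 RPKM in no-TIR vehicle cells, a log2 difference of 0.47 (95% interval 0.13 to 0.81). BIO4, dethiobiotin synthetase, had 99.5 and 83.7 RPKM against 71.7 and 67.7 RPKM, and BIO3, the aminotransferase before it, had 50.1 and 60.3 RPKM against 46.0 and 48.6 RPKM. In footprints VHT1, BIO4 and BIO3 stood at 0.62, 0.80 and 0.79. With auxin BIO3 and BIO4 footprints were called higher in TIR, by 1.43 and 0.81.

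YOR072W-B, a short reading frame, was listed at 0 in both TIR vehicle mRNA libraries and at 4.6 and 10.4 RPKM in the no-TIR vehicle libraries (limma adjusted p = 0.192), with 3.7 and 4.1 RPKM in TIR auxin cells and 7.5 and 5.8 RPKM in no-TIR auxin cells. ATP8, a mitochondrially encoded ATP synthase subunit, had footprints of 1.5 and 19.6 RPKM in TIR vehicle cells and was listed at 0 in both no-TIR vehicle libraries, while its mRNA was 61.4 and 107.9 RPKM against 83.9 and 117.0 RPKM. The TIR vehicle footprint values of ATP8 rest on an estimated 1 and 13 reads in the deeper libraries, and with auxin ATP8 footprints were 0 and 18.1 RPKM in TIR cells and 2.0 and 18.3 RPKM in no-TIR cells. YAT1 mRNA was also higher in TIR cells given auxin and no DTT, with 56.2 and 74.9 RPKM against 25.8 RPKM in the single no-TIR library. URA3 mRNA was 400.2 and 564.0 RPKM in TIR vehicle cells and 384.4 and 629.4 RPKM in no-TIR vehicle cells, and TRP1 mRNA was 34.4 and 30.2 RPKM against 26.4 and 31.4 RPKM.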
